A study of Mus musculus with 24 samples.

Results

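As a class, immediate early genes are the transcripts that cells switch on within minutes of a stimulus, without new protein synthesis. Whether each gene below, Jund among them, is switched on in this way was not tested here. The 10 described here are Fos, Fosb, Jun, Junb, Jund, Egr1, Atf3, Ier2, Dusp1 and Zfp36, taken by their gene identifiers from the 36528 gene models counted in each library, and all 10 passed the filter on low counts in every comparison. They were followed in 24 RNA sequencing libraries of stroma sorted from mouse Peyer's patches, the lymphoid tissue of the small intestinal wall. The 4 groups were 7 libraries of fibroblastic reticular cells (FRC) from mice that took polyethylene glycol (PEG) freely in drinking water at 10% w/v over 3 days, 7 FRC libraries from unperturbed control mice, 6 libraries of high endothelial venule (HEV) endothelial cells from PEG mice and 4 HEV libraries from control mice. PEG was given to lower fluid flow. For each mouse 1000 cells were sorted into a library; the labels give no strain, age or sex and do not say whether FRC and HEV libraries share a mouse, so p-values between cell types treat them as independent.

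As background, Fos and Fosb form dimers with Jun, Junb or Jund, and these AP-1 dimers bind DNA and change the transcription of many targets. Egr1 is a zinc finger factor induced through serum response factor, Atf3 is a stress-induced factor of the CREB and ATF family, and Ier2 is a small nuclear protein of the early response. Dusp1 and Zfp36 close the response: Dusp1 is a phosphatase that inactivates MAP kinases, and Zfp36 binds AU-rich messages and speeds their decay. FRC build the conduit network of lymphoid tissue and HEV are the vessels by which lymphocytes enter it. Enzymatic dissociation of tissue is itself known to induce these genes.

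The 250 bases upstream of the start of Fos, Junb, Dusp1 and Zfp36 are shown because these 4, with Ier2, are the members whose FRC libraries numbered 1-9 all lay above all those numbered 10-24. They are RefSeq sequences of GRCm38.p6, 5′ to 3′ on the gene's strand, and 8 of the 10 members had an entry that was used (not Egr1 or Ier2). Fos lies at chr12:85473640-85473889 on the plus strand, Junb at chr8:84978749-84978998 on the minus strand, Dusp1 at chr17:26508473-26508722 on the minus strand and Zfp36 at chr7:28379229-28379478 on the minus strand. Capitals mark matches to the CRE half-site TGACG on either strand, and in Zfp36 a match to the CArG box, the site of serum response factor.
Fos: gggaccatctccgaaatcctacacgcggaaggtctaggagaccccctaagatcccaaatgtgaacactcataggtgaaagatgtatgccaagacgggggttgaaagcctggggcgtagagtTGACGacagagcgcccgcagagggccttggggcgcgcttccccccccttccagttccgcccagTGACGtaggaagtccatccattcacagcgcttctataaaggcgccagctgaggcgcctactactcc
Junb: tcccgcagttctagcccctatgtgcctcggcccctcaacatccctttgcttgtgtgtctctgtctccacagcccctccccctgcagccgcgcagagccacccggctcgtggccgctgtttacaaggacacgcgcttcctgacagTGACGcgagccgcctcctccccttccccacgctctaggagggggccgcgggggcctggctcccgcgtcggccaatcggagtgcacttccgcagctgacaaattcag
Dusp1: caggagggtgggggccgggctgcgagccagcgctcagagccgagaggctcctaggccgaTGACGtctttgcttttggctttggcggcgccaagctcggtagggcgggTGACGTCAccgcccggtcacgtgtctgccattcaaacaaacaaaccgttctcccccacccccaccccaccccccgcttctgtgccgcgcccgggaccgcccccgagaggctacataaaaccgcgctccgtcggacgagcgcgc
Zfp36: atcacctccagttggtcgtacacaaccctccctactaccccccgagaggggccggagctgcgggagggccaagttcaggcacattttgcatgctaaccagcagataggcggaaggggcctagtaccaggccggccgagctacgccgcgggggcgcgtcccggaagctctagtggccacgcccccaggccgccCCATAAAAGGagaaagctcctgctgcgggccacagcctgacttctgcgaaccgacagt
The CRE half-site occurred at positions -129 and -66 from the start of Fos, at -106 in Junb, and at -191, -143 and -140 in Dusp1, where the match at -143 extends to the full palindrome TGACGTCA. The CArG box of Zfp36 began at -58. Over 32851 RefSeq promoters of the same length, the CRE half-site occurred in 17.8%, the full CRE in 1.55% and the CArG box in 1.47%. The AP-1 site TGANTCA, searched on both strands, occurred in 6.75% of promoters and in none of the 8 members. Fosb had the CRE half-site at -60 and Atf3 at -7. These are matches of letters only, and sites outside the 250 bases were not searched.

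Reads assigned to genes per library ranged from 15823379 to 21710946 in FRC PEG, 12416032 to 18052362 in FRC control, 3115003 to 19948766 in HEV PEG and 14392146 to 17160900 in HEV control. The sorts were checked by marker genes: the fibroblast genes Pdgfra, Pdpn and Col3a1 and the venule genes Madcam1 and Glycam1 separated the cell types, whereas Ccl19, a chemokine of FRC in lymph nodes, reached at most 1.46 CPM in any FRC library. The venule gene Chst4 did not separate them either. It had 0 to 9.51 CPM in HEV PEG and 0.065 to 6.10 in HEV control, against 0 to 11.2 in FRC PEG and 0 to 0.156 in FRC control. The 10 genes together took 0.845 to 2.35% of the reads in FRC PEG, 1.29 to 1.92% in FRC control, 1.55 to 2.04% in HEV PEG and 1.70 to 2.04% in HEV control. Libraries 1-9 differ from libraries 10-24 in a component of variation seen in these same data over all genes, so values are given for both sets. FRC 1-9 comprise 3 PEG and 3 control libraries and FRC 10-24 comprise 4 and 4. In FRC this is also the split of pool 1 against pools 2 and 3, as inferred from recurring index pairs. HEV 1-9 hold 1 PEG and 2 control libraries, and HEV 10-24 hold 5 and 2. The sets also differed in genes detected, which numbered 17095 to 18152 in FRC 1-9 and 18126 to 19920 in FRC 10-24. Their part in the results was not tested.

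On the authors' RPKM scale, which is per length and lets genes be compared, Junb had the highest mean and median of the 10 in all 4 groups and Jund the lowest. Junb had 747 to 2989 RPKM in FRC PEG, 1167 to 2480.5 in FRC control, 1699 to 2573 in HEV PEG and 2297 to 3236 in HEV control. Fos followed in both FRC groups and in HEV PEG, with a median of 873 RPKM in FRC PEG and 876 in FRC control, and Ier2 followed in HEV control with 929.6. Junb did not overlap any other member in HEV PEG or HEV control, but overlapped Ier2 in FRC control and Fos, Ier2, Dusp1 and Jun in FRC PEG, so that order is not beyond the spread there. Jund had 6.52 to 23.8 RPKM in FRC PEG, 15.8 to 25.2 in FRC control, 18.6 to 80.9 in HEV PEG and 13.0 to 32.9 in HEV control, and it overlapped its neighbour Fosb in HEV PEG alone. Dusp1 had 238 to 1097 RPKM in FRC PEG, 184 to 769 in FRC control, 120.1 to 409 in HEV PEG and 137 to 377 in HEV control, with the highest coefficient of variation of the 10 in both FRC groups, 69.0% in FRC PEG and 63.2% in FRC control. The levels of each library below are in CPM, counts scaled by TMM to a common library size.

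**Figure D1:**
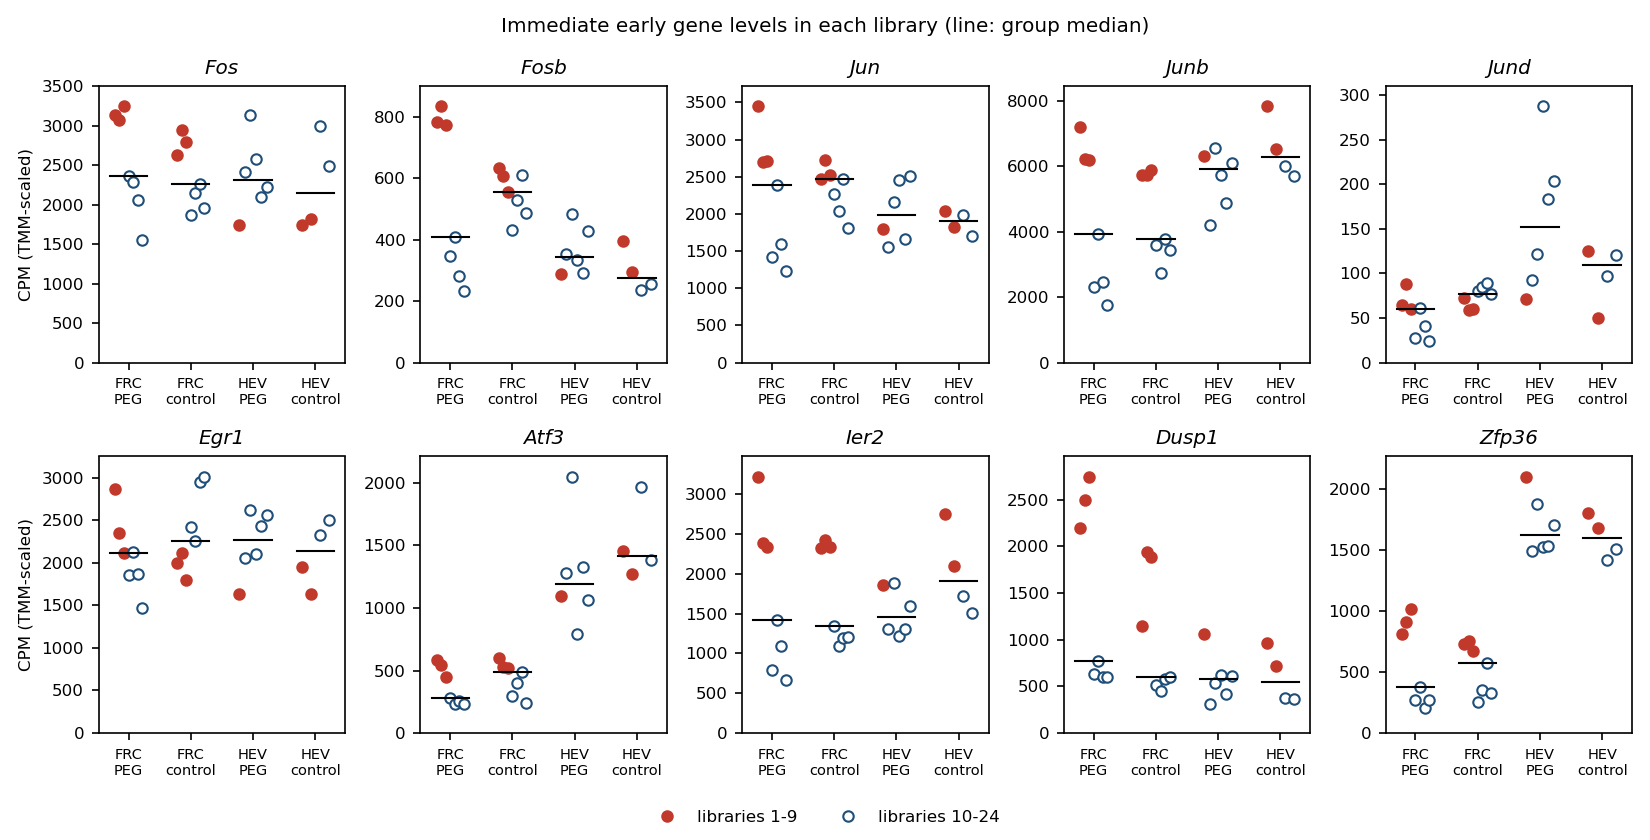
CPM (TMM-scaled, linear axis from 0) of each gene in each library, 1 panel per gene; columns are the 4 groups, filled points are libraries 1-9, open points libraries 10-24, and lines are group medians. Atf3 and Zfp36 were higher in HEV than in FRC without overlap, and in FRC the filled points of Fos, Junb, Ier2, Dusp1 and Zfp36 lie above the open ones.

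HEV cells carried more Zfp36 and Atf3 message than FRC in both PEG and control mice. Zfp36, the message-decay factor, ranged from 1489.6 to 2096 CPM with a median of 1617 in HEV PEG, against 209 to 1016 CPM with a median of 378 in FRC PEG. In controls it had 1803, 1682, 1412 and 1507 CPM in HEV libraries 8, 9, 17 and 24, against 252 to 750.4 CPM with a median of 572 in FRC. No HEV library overlapped any FRC library of the same treatment. The log2 fold change was 2.22 ± 0.23 under PEG (SE, adjusted p = 6.03e-06 by edgeR's quasi-likelihood test) and 1.80 ± 0.21 among controls (adjusted p = 8.32e-05). Under PEG the cell types cannot be told apart from the i5 sequencing index: all 6 HEV PEG libraries carried index N504 and all 7 FRC PEG libraries index N503. The labels' clip.pct value also did not overlap, at 3.51 to 5.01 in HEV PEG against 1.5 to 2.08 in FRC PEG, nor did their qual.2 value, at 34.6 to 35.2 against 35.9 to 36.1. Among controls both indexes occurred in both cell types, and with the index as a covariate Zfp36 differed by 1.79 ± 0.21 (adjusted p = 0.000167). HEV control library 9 held 492 CPM of summed FRC markers, against 31.7 to 81.5 CPM in HEV PEG, and without it the difference of Zfp36 among controls was 1.51.
Atf3, the stress-induced factor, ranged from 789 to 2048 CPM with a median of 1189.7 in HEV PEG, against 234 to 585 CPM with a median of 279 in FRC PEG. In controls it had 1455, 1270.2, 1969 and 1380.5 CPM in the 4 HEV libraries, against 238 to 602 CPM with a median of 485 in FRC. Here, too, the cell types did not overlap, and the log2 fold change was 2.04 ± 0.26 under PEG (edgeR adjusted p = 4.96e-05) and 1.85 ± 0.23 among controls (adjusted p = 0.000102).

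Of the 10, 4 were called higher and 0 lower in HEV under PEG, where 26.8% of all genes were called, 12.5% higher and 14.4% lower. Among controls 4 were higher and 1 lower, against 24.5% of all genes, 10.6% higher and 13.9% lower. Without overlap, 2 members lay above FRC and 0 below under PEG, where 8.05% of all genes lay above and 9.22% below, and 2 lay above and 1 below among controls, where 8.77% lay above and 10.7% below. Junb, an AP-1 subunit, rose by 0.80 ± 0.23 on the log2 scale under PEG (edgeR adjusted p = 0.0171) and by 0.69 ± 0.13 among controls (adjusted p = 0.00174). Its HEV PEG libraries held 4212 to 6554 CPM with a median of 5919, against 1760.3 to 7218 CPM with a median of 3929.7 in FRC PEG, and the groups overlapped. The call of Junb under PEG was lost without FRC PEG library 10 (edgeR adjusted p = 0.0600) or 19 (adjusted p = 0.0555). Fosb, a partner of Jun proteins like Fos, had 395, 295, 234 and 255 CPM in the 4 HEV controls, against 429.9 to 632 CPM with a median of 556 in FRC controls, with no overlap. Fosb fell by 0.88 ± 0.17 on the log2 scale in HEV controls (edgeR adjusted p = 0.00235), and its difference under PEG was -0.13 ± 0.26 (adjusted p = 0.777). Jund, the AP-1 subunit with the lowest level, ranged from 71.3 to 287 CPM with a median of 152 in HEV PEG, against 24.1 to 88.0 CPM with a median of 60.5 in FRC PEG, a log2 fold change of 1.75 ± 0.44 (edgeR adjusted p = 0.00836). Among controls its difference was 0.30 ± 0.28 (adjusted p = 0.511). The difference between these 2 values of Jund, tested as a PEG effect that differs between cell types, did not pass over all genes.

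Ier2 rose by 0.43 ± 0.13 on the log2 scale in HEV controls (edgeR adjusted p = 0.0308) and differed by 0.29 ± 0.24 under PEG (adjusted p = 0.425). Its call among controls was kept in 4 of the 11 fits that left out 1 library, and was lost without FRC control library 4, 6, 13, 20 or 21 or HEV control library 9 or 17, at adjusted p from 0.0502 to 0.119. Fos, Jun and Egr1 were not called in either treatment, with log2 differences of -0.030 ± 0.18, 0.061 ± 0.23 and 0.12 ± 0.18 under PEG and -0.11 ± 0.18, -0.29 ± 0.13 and -0.29 ± 0.13 among controls. Dusp1, the phosphatase, differed by -0.59 ± 0.21 under PEG (edgeR adjusted p = 0.0523) and -0.36 ± 0.24 among controls (adjusted p = 0.327). It was called lower in HEV under PEG without HEV PEG library 16 (-0.66, adjusted p = 0.0314) or 23 (-0.70, adjusted p = 0.0274), and among controls without HEV control library 9 (-0.76, adjusted p = 0.0172). Egr1 was called lower among controls without HEV control library 8 (-0.42, adjusted p = 0.0446).
Within libraries 1-9 alone HEV PEG is the single library 7, which has no spread of its own and is assumed by the fit to vary like the FRC libraries. There the difference under PEG was 1.17 for Zfp36, 1.03 for Atf3, -0.080 for Junb and -0.025 for Jund. Within libraries 10-24 it was 2.53 ± 0.21, 2.35 ± 0.26, 1.08 ± 0.24 and 2.22 ± 0.42, in the same order, with all 4 called.

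**Figure D2:**
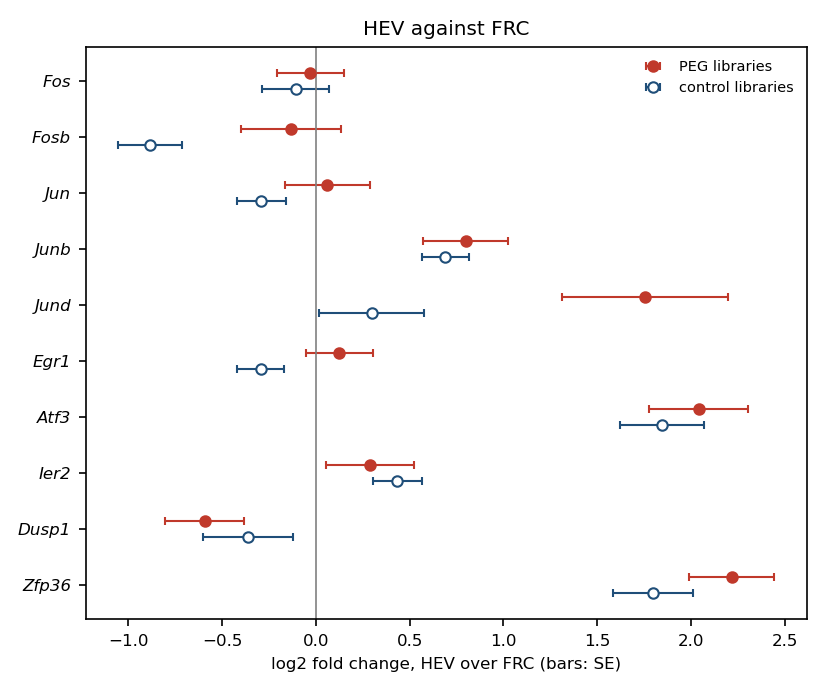
Log2 fold change of HEV over FRC for each gene (x axis; bars are SE from the edgeR fit), with PEG libraries (filled, 6 HEV and 7 FRC) above control libraries (open, 4 HEV and 7 FRC). Zfp36 and Atf3 lie farthest to the right in both treatments, at 1.80 to 2.22.

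Other genes of the early response were counted in lists. Over all genes 12.5% were called higher and 14.4% lower in HEV under PEG, and 10.6% and 13.9% among controls. Of the feedback regulators, which act on the NF-kB, MAP kinase and cytokine pathways, 14 of 28 tested were called higher and 6 lower in HEV under PEG, with a median log2 difference of 1.43 against -0.082 over all genes. Among controls 13 were higher and 5 lower, with a median of 1.15 against -0.14. Ier3, an early-response survival gene, rose by 3.67 ± 0.22 under PEG (edgeR adjusted p = 3.09e-08) and 2.70 ± 0.16 among controls (adjusted p = 3.05e-07). Nfkbia and Tnfaip3, inhibitors of NF-kB signalling, rose by 1.98 ± 0.15 and 3.26 ± 0.23 under PEG and by 2.33 ± 0.14 and 3.21 ± 0.27 among controls. Of the AP-1 and ATF relatives, 4 of 12 were higher and 0 lower under PEG, and 3 and 0 among controls. Fosl2, an AP-1 subunit like Fos, rose by 2.86 ± 0.21 under PEG and 2.26 ± 0.21 among controls, with 648 to 1058 CPM in HEV PEG against 79.9 to 154 CPM in FRC PEG.
Of the other early transcription factors, 8 of 18 were higher and 1 lower under PEG and 7 and 4 among controls. Irf1, an interferon response factor, Bhlhe40 and Klf2, a shear-responsive endothelial factor, led the rises at 2.94 ± 0.16, 3.23 ± 0.26 and 2.69 ± 0.23 under PEG. Hes1, a Notch target, fell by 2.04 in HEV controls. The secreted and other products split, 10 of 21 higher and 5 lower under PEG and 7 and 5 among controls. Among them the chemokine Ccl7 had 36.0 to 188 CPM in FRC PEG and 114 to 219 CPM in FRC control, while in HEV 1 read was counted in 1 of 6 PEG and 1 of 4 control libraries. The heat shock genes also split, 5 of 15 higher and 1 lower under PEG and 4 and 4 among controls, with the small chaperone Hspb1 at 2.98 ± 0.34 under PEG and 2.14 ± 0.29 among controls. Upstream regulators, which include the kinases and serum response factor partners, had 5 of 24 higher and 1 lower under PEG and 4 and 2 among controls, led by Mrtfb at 3.03 ± 0.19 among controls. Taken in both directions, the counts of the upstream regulators and of the AP-1 and ATF relatives are near the share of all genes called. That share was 26.8% under PEG and 24.5% among controls. The other lists had a higher share called.

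The other genes of smallest p among those called in each list gave these log2 differences of HEV over FRC. Maff, Mafk and Mafg, small Maf partners of AP-1 proteins, had 1.66 ± 0.33, 1.45 ± 0.32 and 0.69 ± 0.22 under PEG, and Mafk and Cebpd had 0.98 ± 0.22 and 1.23 ± 0.25 among controls. Among controls Irf1, Bhlhe40 and Klf2 had 2.99 ± 0.17, 3.03 ± 0.29 and 1.91 ± 0.18, and Csrnp1 had 2.27 ± 0.36 under PEG. Socs3 had 2.62 ± 0.23 under PEG and Nfkbiz, an atypical inhibitor of NF-kB, 2.33 ± 0.19 among controls. Of the products, Odc1, the first enzyme of polyamine synthesis, had 3.05 ± 0.24 under PEG and 3.75 ± 0.33 among controls, the monocyte chemokine Ccl2 -6.00 ± 0.60 and -4.44 ± 0.46, Mcl1, a survival protein, 2.06 ± 0.22 under PEG, and the kinase Sgk1 1.72 ± 0.25 among controls. Of the chaperones, Hspb8, Hsp90ab1 and Hspa8 had -1.44 ± 0.29, 0.96 ± 0.24 and 0.64 ± 0.18 under PEG, and Hspa1a, Dnajb4 and Hspa5 had -1.29 ± 0.14, -1.67 ± 0.25 and 1.04 ± 0.17 among controls. Hspa1a is near-identical to Hspa1b, so its unique reads are uncertain. Among upstream regulators Mrtfb, Elk3, Rps6ka3 and Map2k3 had 3.29 ± 0.26, 4.13 ± 0.52, 3.41 ± 0.46 and 0.83 ± 0.26 under PEG, and the last 3 had 3.34 ± 0.35, 3.44 ± 0.36 and 1.61 ± 0.34 among controls.

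No member was called between PEG and control mice in either cell type, where 0% of the 14595 genes tested in FRC and 0% of the 14308 tested in HEV were called. The edgeR test gave an unadjusted p under 0.05 for 1 member in FRC and for 0 in HEV, and for 989 and 886 of all genes. DESeq2 and limma-voom called 0 members in either cell type, and DESeq2 called 57 genes in FRC and 116 in HEV. Without overlap, 0 members lay above or below control in FRC, where 0.0548% of all genes lay above and 0.048% below, and 0 in HEV, where 0.447% lay above and 0.426% below.
Dusp1 came nearest in FRC. It ranged from 595 to 2743 CPM with a median of 774 in FRC PEG, against 454 to 1939 CPM with a median of 601 in FRC control, with a log2 fold change of 0.42 ± 0.14 (edgeR adjusted p = 0.606). The groups overlapped. Jund had a difference of -0.56 ± 0.27 (edgeR adjusted p = 0.752) and Atf3 of -0.30 ± 0.16 (adjusted p = 0.782), and the other 7 lay between -0.22 and 0.084. All 7 FRC PEG libraries carried i5 index N503, as did control libraries 4, 12 and 20. Control libraries 5, 6, 13 and 21 carried N504. The labels' clip.pct value was 1.5 to 2.08 in FRC PEG and 1.41 to 5.41 in FRC control. Dusp1 lay between 0.40 and 0.55 in 10 alternatives, which included the i5 index as a covariate and index N503 alone.
In HEV, Jund had 71.3, 92.8, 121, 287, 183 and 203 CPM in PEG libraries 7, 14, 15, 16, 22 and 23, against 125, 50.2, 97.1 and 121 CPM in the 4 controls. The highest value was that of library 16, the one with the lowest depth, and the groups overlapped. The log2 fold change was 0.74 ± 0.47 (edgeR adjusted p = 0.832). It was 0.090 ± 0.60 with the i5 index as a covariate and 0.0070 ± 0.58 among the libraries of index N504, which all HEV PEG libraries and 2 of the 4 controls carried. Ier2 had -0.37 ± 0.18 (adjusted p = 0.813), and the other 8 lay between -0.28 and 0.28.
The PEG effect was next compared between the cell types, where 2 of 18203 genes were called, 0.011%. No member was called: edgeR gave an unadjusted p under 0.05 for 1 of the 10, and DESeq2 and limma-voom called 0. Jund had the smallest p, with an HEV minus FRC difference of 1.29 ± 0.50 (edgeR adjusted p = 0.388).

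None of the 6 other lists had a gene called in either cell type. In FRC the gene of smallest p was Cebpd among AP-1 and ATF relatives (0.81 ± 0.19, adjusted p = 0.483), Hes1 among transcription factors (-0.51 ± 0.18), Errfi1, a feedback inhibitor of EGF receptors (0.87 ± 0.23), Rhob, a small GTPase (-0.51 ± 0.16), Dnaja1, a co-chaperone (-0.63 ± 0.15), and Elk1, a partner of serum response factor (1.86 ± 1.04), each a log2 difference by edgeR. In HEV it was Batf3 (1.69 ± 0.87), Irf1 (-0.35 ± 0.16), Errfi1 (-1.86 ± 0.42, edgeR adjusted p = 0.767), Odc1 (-0.61 ± 0.23) and Dnajb1 (-0.72 ± 0.25). Elk1 had 1.68 to 23.3 CPM in FRC PEG and 0.071 to 10.7 CPM in FRC control. Batf3 had 3.30 to 22.3 CPM in HEV PEG and 0.131 to 15.1 CPM in HEV control. Levels of Elk1 and Batf3 were thus low and overlapped between PEG and control. Errfi1 had a difference between the cell types of -2.58 ± 0.52 (edgeR adjusted p = 0.086), and the others of smallest p there were Cebpd (-1.28 ± 0.38), Hes1 (0.96 ± 0.31), Arf6 (1.19 ± 0.34) and Dnajb4 (1.20 ± 0.46).

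Within FRC the PEG difference was above 0 in libraries 1-9 and below 0 in libraries 10-24 for 8 of the 10 members, with Fos barely below 0 in the latter. The share of all genes with this pattern was not counted, and the members vary together over the FRC libraries. Fosb had 781, 833 and 771 CPM in PEG libraries 1, 2 and 3, against 632, 607 and 556 CPM in control libraries 4, 5 and 6, so every PEG library was higher. In libraries 10-24 Fosb had 345, 407, 281 and 233 CPM in PEG libraries 10, 11, 18 and 19, against 429.9, 527, 608 and 488 CPM in control libraries 12, 13, 20 and 21, so every PEG library was lower.
Egr1 had 2869, 2351 and 2119.7 CPM in the 3 PEG libraries, against 1997, 2113 and 1792 CPM in the 3 controls of the first set. In the second it had 1856, 2127, 1863 and 1469.9 CPM in PEG, against 2423, 2261, 2948 and 3007 CPM in control. The groups did not overlap in either set, and the order turned.
Jund had 64.1, 88.0 and 60.5 CPM in PEG, against 72.5, 58.9 and 60.1 CPM in control in libraries 1-9, which overlapped. In libraries 10-24 it had 28.0, 60.9, 41.2 and 24.1 CPM in PEG, against 80.0, 84.7, 89.5 and 77.2 CPM in control, with every PEG library lower. By set, 6 members lay above control without overlap in libraries 1-9 (Fos, Fosb, Junb, Egr1, Dusp1 and Zfp36) and 0 below, where 10.6% of all genes did not overlap, 5.4% above and 5.19% below. In libraries 10-24 0 lay above and 3 below (Fosb, Jund and Egr1), where 7.19% of all genes did not overlap, 3.01% above and 4.18% below. Control libraries 5 and 6 of the first set and 13 and 21 of the second carried i5 index N504, and every PEG library N503. The part of the index within the sets was not tested.

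The log2 fold change of PEG over control in libraries 1-9 was 0.60 ± 0.21 for Dusp1, 0.43 ± 0.13 for Fosb, 0.37 ± 0.14 for Zfp36 and 0.33 ± 0.14 for Egr1, and from -0.043 to 0.22 for the other 6. In libraries 10-24 it was -1.11 ± 0.31 for Jund, -0.72 ± 0.19 for Fosb, -0.53 ± 0.15 for Egr1 and 0.29 ± 0.15 for Dusp1, and from -0.49 to -0.0034 for the other 6. Dusp1 alone was above 0 in both sets. No member was called within either set. The difference of the PEG effect between the sets was tested after the values were seen, as an interaction term. It was 1.12 ± 0.25 for Fosb (edgeR adjusted p = 0.291), 0.87 ± 0.22 for Egr1 (adjusted p = 0.324) and 1.27 ± 0.43 for Jund (adjusted p = 0.449). No member passed by edgeR, which called 1 of 14595 genes, 0.00685%, and gave an unadjusted p under 0.05 for 5 members and 1197 genes. The DESeq2 Wald test called Fosb and Egr1 among 156 genes, with adjusted p = 0.00604 and 0.0231, and limma-voom called 0 genes. The median over the 10 was 0.57, against 0.0021 over all genes.
Among the FRC PEG libraries of the second set, mitochondrial transcripts took 1.72, 0.745, 1.66 and 2.25% of the reads in libraries 10, 11, 18 and 19, against 1.02 to 1.14% in the 4 controls. The summed level of 12 intestinal epithelial markers was 509, 83.4, 5329 and 3016 CPM in those PEG libraries, against 507, 52.5, 2086 and 589 CPM in controls 12, 13, 20 and 21. Library 11, with the lowest mitochondrial share and the lowest epithelial sum of the 4, had the highest level of the 4 PEG libraries for 8 of the 10 members. Among the 4 controls, library 20, with the highest epithelial sum, had the highest Fos, Fosb, Jun, Junb, Jund, Atf3 and Zfp36. Control library 13, with the lowest epithelial sum, had the lowest Junb, Ier2, Egr1 and Dusp1. The shares of all genes that were highest in library 11 or 20, or lowest in library 13, were not counted. The part of these differences in the result was not tested.

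**Figure D3:**
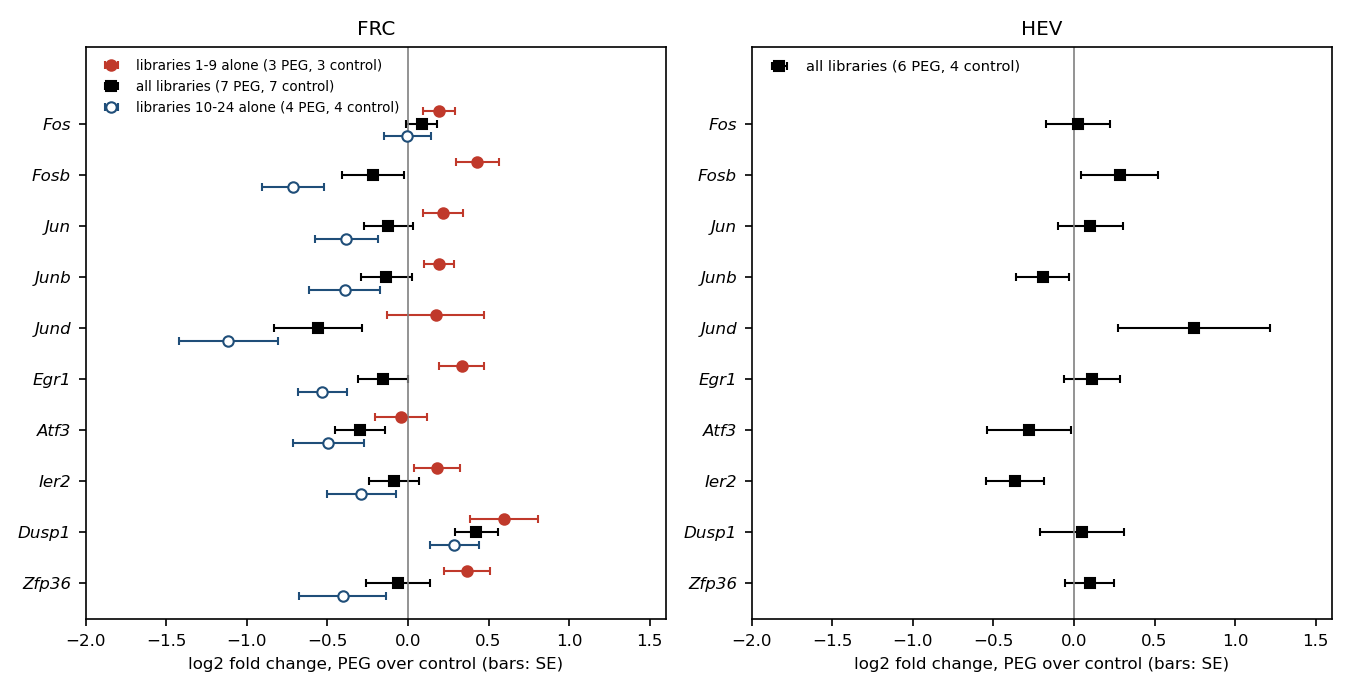
Log2 fold change of PEG over control for each gene (x axis; bars are SE from edgeR). In FRC (left) red circles are libraries 1-9, black squares all libraries and open circles libraries 10-24. In HEV (right) squares are all libraries. In FRC the red and open circles of Fosb, Egr1 and Jund lie on opposite sides of 0.

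Libraries 1-9 were compared with 10-24 within each cell type as a description without a test. In FRC the sets are inferred pool 1 against pools 2 and 3, so their differences cannot be told apart from pool. In FRC, 5 of the 10 members lay above without overlap and 0 below, where 4.24% of all genes did not overlap, 2.37% above and 1.86% below. Dusp1 stood farthest apart. It ranged from 1149.5 to 2743 CPM with a median of 2067 in libraries 1-9, against 454 to 774 CPM with a median of 598 in libraries 10-24, a log2 difference of 1.75 ± 0.13 (SE). Zfp36, its partner in closing the response, ranged from 671 to 1016 CPM with a median of 782 against 209 to 572 CPM with a median of 296 (1.30 ± 0.20).
Ier2 ranged from 2328 to 3219.6 CPM with a median of 2363 against 669.7 to 1419 CPM with a median of 1147 (1.16 ± 0.16). Junb ranged from 5722 to 7218 CPM with a median of 6033 against 1760.3 to 3929.7 CPM with a median of 3095 (1.02 ± 0.16). Fos did not overlap either and differed by 0.49 ± 0.10. Atf3 (0.82 ± 0.15), Fosb (0.76 ± 0.19) and Jun (0.52 ± 0.15) overlapped between the sets, as did Jund (0.24 ± 0.27) and Egr1 (-0.029 ± 0.16). The size of the difference therefore ran from near 0 in Egr1 to 3.37-fold in Dusp1. The sum of the 8 FRC markers had a median of 23400.2 CPM in libraries 1-9 (12286 to 28140) against 12928 CPM in libraries 10-24 (10862 to 14699), with overlap. The mean log2(CPM + 1) of these markers had medians of 8.56 and 8.28, also with overlap. The part of the markers was not tested.

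In HEV, 1 member lay above and 2 below without overlap, where 9.08% of all genes did not overlap, 4.66% above and 4.42% below. Dusp1 was again the one above, with 1061, 964 and 718 CPM in libraries 7, 8 and 9, against 314 to 623 CPM with a median of 421 in libraries 10-24 (1.16 ± 0.23). Fos had 1743, 1743 and 1815 CPM, against 2097 to 3143 CPM with a median of 2492, and Egr1 had 1629, 1953 and 1636 CPM, against 2057 to 2625 CPM with a median of 2434. Both were lower in all 3 libraries, with log2 differences of -0.56 ± 0.17 and -0.46 ± 0.16. Ier2 (0.49 ± 0.18), Zfp36 (0.32 ± 0.15), Junb (0.27 ± 0.16), Fosb (0.14 ± 0.26), Jun (-0.039 ± 0.20), Atf3 (-0.25 ± 0.25) and Jund (-0.72 ± 0.44) overlapped. Genes detected numbered 16283 to 17040 in HEV 1-9 and 17327 to 18904 in HEV 10-24, without overlap. The summed intestinal epithelial markers had a median of 102 CPM in HEV 1-9 (16.5 to 583) and 1216.5 CPM in HEV 10-24 (41.6 to 3733), and the part of these values was not tested. The median over all genes was -0.17 in HEV and -0.068 in FRC on the same scale.

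**Figure D4:**
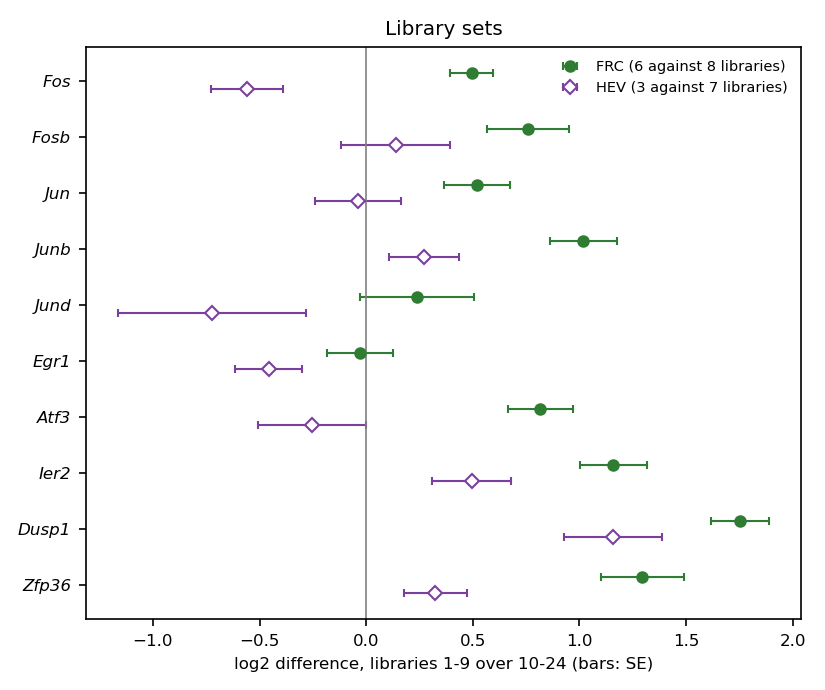
Log2 difference of libraries 1-9 over libraries 10-24 for each gene (x axis; bars are SE from edgeR), in FRC (circles, 6 against 8 libraries) and HEV (diamonds, 3 against 7). Dusp1 is high in both cell types, and Fos is above 0 in FRC and below 0 in HEV.

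Among the other lists in FRC, 7 of 15 heat shock genes lay above without overlap, as did 8 of 28 feedback regulators, 5 of 22 secreted and other products, 2 of 18 transcription factors, 2 of 12 AP-1 and ATF relatives and 0 of 24 upstream regulators, and 0 of these genes lay below. Over all genes in FRC 2.37% lay above and 1.86% below. The heat shock genes included Dnajb1, a co-chaperone of Hsp70, with 1116 to 1702 CPM in libraries 1-9 and 172 to 413 CPM in libraries 10-24, and Dnaja1 with 475 to 1234 CPM in libraries 1-9 and 179 to 408 CPM in libraries 10-24. The feedback genes included Btg2, an antiproliferative factor, with 2658 to 4244 CPM in libraries 1-9 and 852 to 1320.5 CPM in libraries 10-24, and Socs3, an inhibitor of cytokine signalling, with 1275 to 1711 CPM in libraries 1-9 and 249.9 to 676 CPM in libraries 10-24. Egr2, a relative of Egr1, had 78.6 to 225 CPM in libraries 1-9 and 23.0 to 58.6 CPM in libraries 10-24, unlike Egr1 itself. In HEV the lists went both ways: 5 of 18 transcription factors lay above and 6 below, 7 of 28 feedback regulators above and 5 below, 4 of 15 heat shock genes above and 2 below, 3 of 20 secreted and other products above and 1 below, 3 of 24 upstream regulators above and 1 below, and 2 of 12 AP-1 and ATF relatives above and 1 below. Over all genes in HEV 4.66% lay above and 4.42% below. Egr2 and Nr4a1, an orphan nuclear receptor of the early response, were above in HEV too, with 112 to 245 CPM in libraries 1-9 and 36.2 to 100.3 CPM in libraries 10-24 and 239.9 to 567 CPM in libraries 1-9 and 102 to 196 CPM in libraries 10-24. Id1, an inhibitor of helix-loop-helix factors, was below, with 66.3 to 67.7 CPM in libraries 1-9 and 175 to 324 CPM in libraries 10-24. These genes were chosen after their values were seen.

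After the group means were subtracted, Pearson's r over the 14 FRC libraries was above 0.5 for 36 of the 45 pairs, with a median of 0.81 and none below 0. With the pool means subtracted as well the median was 0.29, with 15 pairs above 0.5 and 8 below 0. Over the 10 HEV libraries the median was 0.22 within groups, with 13 pairs above 0.5 and 14 below 0, and 0.58 within groups and pools, with 25 above 0.5 and 8 below 0. HEV libraries 7, 8 and 9 are each alone in their group and pool, so the subtraction leaves no deviation for them. The median of 0.58 therefore rests on libraries 14, 15, 16, 17, 22, 23 and 24. The genes whose pattern over the 24 libraries was most like the mean of the 10, among 11841 genes with at least 5 CPM, were Nfkbiz, Socs3, Ppp1r15a, Dnajb1, Cxcl1, Lrrc8c, Iqcn and Dnaja1, with r from 0.83 to 0.89. Within FRC their r was 0.87 to 0.97, and within HEV -0.23 to 0.36, with Iqcn the lowest. With a pseudocount of 10, Lrrc8c had r = 0.72 and rank 94. Within groups and pools Dnajb1 and Ppp1r15a, a phosphatase subunit of the stress response, kept r of 0.84 and 0.83 and ranked 5 and 6, whereas Lrrc8c had 0.59, Socs3 0.58, Nfkbiz 0.44, Cxcl1 0.33, Iqcn 0.25 and Dnaja1 0.21. These values share library, depth and preparation and describe these libraries.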

How the data were processed

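RNA of sorted Peyer's patch FRC and HEV cells was sequenced in 24 libraries. Per the labels' protocols, cDNA was made by template switching from 1000 cells, libraries by Nextera, reads of poor quality or from ribosomal RNA and adapters were discarded and unique alignments retained. The submitters' processing notes name GSNAP and build mm9; the protocol text names a human build, and the gene identifiers are mouse. Versions are not given in the sources used here. Per the file headers, each deposited file gives a count of reads per gene and an RPKM adjusted by a size factor by the authors. Counts were used for all tests and the RPKM only to order genes by level. Counts carry no strand.

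Members and lists were chosen with earlier results of these data known. Named genes were all 10 members, up to 4 genes of smallest p among those called of each list (otherwise the gene of smallest p), and the 8 genes most like the member mean. One gene that this rule names is not reported here. Btg2, Egr2, Nr4a1 and Id1 fall outside it and were picked with values known. Groups follow the labels. Libraries fall into 3 pools, inferred from recurring index pairs (1-8, 9-16 and 17-24), which were a covariate. Each library was sorted from 1 mouse per the labels. Replicates of 1 group were taken to come from separate mice, though the labels give no mouse identifier. Gene symbols come from RefSeq (GRCm38.p6), matched on identifier.

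Genes were filtered with filterByExpr (count minimum 10), scaled by TMM and tested two-sided with the quasi-likelihood method of edgeR 4.0.16 (R 4.3.3) with Benjamini-Hochberg adjustment over all genes tested, and called at an adjusted p under 0.05. The SE was obtained from each fold change and its F statistic. CPM are TMM-scaled, except for marker sums, which are plain. The script was tested on simulated data. Alternatives were DESeq2 1.42.0, limma-voom (limma 3.58.1) with quality weights, 2 other scalings, other filters, covariates, library sets and each library left out. Without molecular identifiers, PCR duplicates count as reads.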

Additional observations from a re-analysis of the deposited data

Results flagged for a closer look

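Fos differed in direction between the cell types in the comparison of libraries 1-9 with libraries 10-24: the log2 difference was 0.49 in FRC, where all 6 libraries of the first set lay above all 8 of the second, and -0.56 in HEV, where all 3 lay below all 7. The difference between these 2 values was not tested, and the HEV set holds 3 libraries. No group of 4 to 10 libraries had a library of any member standing far enough from the others to be listed, out of 40 group and gene checks, of which chance lists about 1 in 20.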

How the results depend on the processing

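No paired analysis was possible because the labels give each library its own number and no mouse identifier, so that no number is shared between groups. The counts of members called for PEG against control in FRC, in HEV and for the difference between the cell types were 0 in every alternative run and with each library left out. The count for HEV over FRC among controls, 5, was 3 without the pool covariate, in libraries 10-24 alone and in libraries 1-9 alone, and 4 to 6 with a library left out. Under PEG it was 4, and 3 to 5 with a library left out. For the interaction of PEG and library set in FRC, 2 members were called by the DESeq2 Wald test and 0 otherwise. Beyond calls lost or gained with a library left out, Junb among controls was not called without the pool covariate (adjusted p = 0.0910) or in libraries 10-24 (0.0533), Junb under PEG without the covariate (0.398), and Fosb among controls in libraries 1-9 (0.183). Ier2 among controls was not called with no filter (adjusted p = 0.162), without the covariate (0.642, log2 value 0.23), in 1 model of 24 libraries (0.0700), in libraries 10-24 (0.230) or in libraries 1-9 (0.275). Dusp1 under PEG was called lower in 5 alternatives that keep 2 or more libraries per group (adjusted p from 0.0124 to 0.0480), and Egr1 among controls by limma-voom (adjusted p = 0.0358). In libraries 1-9, where HEV PEG is 1 library assumed to vary like FRC, Fosb and Dusp1 under PEG differed by -1.49 and -1.25. Atf3 under PEG differed there by 1.03, against 2.04 over all libraries. Jund for PEG over control in HEV was 0.090 with the i5 index and 0.0070 within index N504, against 0.74. HEV over FRC under PEG could not be fitted with the i5 index, which differs between those groups. The cause of these changes was not tested.

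For PEG over control in FRC, the log2 value changed sign at Fos -0.0034 in libraries 10-24 alone, and at Fosb 0.43, Jun 0.22, Junb 0.19, Jund 0.17, Egr1 0.33, Ier2 0.18 and Zfp36 0.37 in libraries 1-9 alone, and at Ier2 0.011 and Zfp36 0.094 without the pool covariate. For PEG over control in HEV, the log2 value changed sign at Fos -0.089 by limma-voom, and at Fos -0.019 and Egr1 -0.086 with pool and i5 index, and at Fos -0.34 in libraries 10-24 alone, and at Fos -0.13 and Egr1 -0.12 within 1 i5 index, and at Dusp1 -0.024 without the pool covariate. For HEV over FRC among controls, the log2 value changed sign at Fos 0.014 by limma-voom, and at Fos 0.014 in 1 model of all 24 libraries, and at Fos 0.34 in libraries 10-24 alone, and at Egr1 0.020 in libraries 1-9 alone. For HEV over FRC under PEG, the log2 value changed sign at Fos 0.0058 by limma-voom, and at Fos 0.25 and Fosb 0.25 in libraries 10-24 alone, and at Jun -0.13 and Ier2 -0.16 without the pool covariate, and at Jun -0.75, Junb -0.080, Jund -0.025, Egr1 -0.62 and Ier2 -0.54 in libraries 1-9 alone. For the difference of the PEG effect between the cell types, the log2 value changed sign at Fos 0.018 and Junb 0.011 with DESeq2 size factors, and at Fos 0.017 and Junb 0.010 with the submitters' size factors, and at Fos 0.018 and Junb 0.011 by the DESeq2 Wald test, and at Fos 0.033 and Junb 0.21 with pool and i5 index, and at Fosb -0.90, Jun -0.42, Jund -1.001, Egr1 -0.62, Atf3 -0.39 and Zfp36 -0.17 in libraries 1-9 alone, and at Junb 1.79e-05 by limma-voom, and at Junb 0.21, Ier2 0.063 and Dusp1 0.17 in libraries 10-24 alone, and at Atf3 -0.013 without the pool covariate. With a library left out in turn, values that changed sign ranged as follows: Ier2 -0.18 to 0.019 and Zfp36 -0.15 to 0.11 for PEG over control in FRC; Fos -0.24 to 0.13, Jun -0.025 to 0.19, Egr1 -0.065 to 0.24 and Dusp1 -0.11 to 0.36 for PEG over control in HEV; Fos -0.23 to 0.14 and Jund -0.062 to 0.61 for HEV over FRC among controls; Fos -0.13 to 0.27, Fosb -0.28 to 0.28 and Jun -0.068 to 0.35 for HEV over FRC under PEG; Fos -0.20 to 0.19, Junb -0.16 to 0.091, Atf3 -0.11 to 0.31 and Dusp1 -0.45 to 0.050 for the difference of the PEG effect between the cell types. The members' other log2 values in these 5 comparisons kept their sign in the alternatives run. In the description of libraries 1-9 over 10-24, 3 of the 20 values changed sign with a library left out: Egr1 in FRC (-0.13 to 0.063), Fosb in HEV (-0.068 to 0.52, the highest without HEV PEG library 7) and Jun in HEV (-0.12 to 0.085).

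Over all genes, the calls for PEG against control were 177 in FRC and 141 in HEV with no filter on low counts, 57 and 116 by DESeq2, against 0 by edgeR with the filter, and 18 in HEV in 1 model of all 24 libraries. For the difference between the cell types, 2 genes were called, against 38 with no filter, 350 by DESeq2, 5 without covariate, 33 in libraries 1-9, 0 by limma-voom, with the i5 index or in libraries 10-24, and 1 to 16 with a library left out. HEV over FRC called 2276 genes among controls in libraries 10-24 and 1185 in libraries 1-9, and 1137 under PEG in libraries 1-9. PEG against control in HEV could not be fitted in libraries 1-9 alone. The interaction with library set, chosen after seeing the data, called 1 gene, against 156 by DESeq2, 0 by limma-voom and 1 to 5 with a library left out. The cause of these changes was not tested. HEV PEG library 16, with 3115003 reads, limits the HEV comparisons in depth.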
